A study of Homo sapiens with 27 samples.

Results

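The genes described here are the 29 sterol synthesis, uptake and efflux genes found by symbol in the counts of the U2OS expansion experiment, out of 55882 gene symbols counted. They comprise 18 enzymes that build cholesterol, 4 genes that control the transcription factor SREBP2, 3 genes of sterol uptake, transfer and storage, and 4 genes of the liver X receptor (LXR) and efflux system. U2OS is a human osteosarcoma cell line, grown here in medium with 10% fetal bovine serum, which supplies cholesterol in lipoproteins. The study's methods describe lentiviral transduction and selection with puromycin. The control, which the sample titles call WT, is described in the labels as carrying an empty pLKO.1 vector and is called the pLKO.1 control here, and MMP2sh1 and MMP2sh2 each carried a different short hairpin RNA against matrix metalloproteinase 2 (MMP-2), a protease that the study examines for its cleavage of the histone H3 tail. Poly(A) RNA was sequenced from each line when subconfluent (day −2), confluent (day 0) and overconfluent (day +2), which gave 9 groups of 3 libraries. Each line is a single transduced population, so the effect of a hairpin and any other property of its line cannot be told apart, and the control libraries serve as the reference of both hairpin lines.

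Cholesterol is made from acetyl-CoA through mevalonate, squalene and lanosterol. When sterols in the endoplasmic reticulum are low, the escort protein SCAP carries SREBP2 to the Golgi, where it is cut and freed to switch on the genes of synthesis and uptake. When sterols are plentiful, INSIG proteins hold SCAP back. Oxysterols activate the LXR nuclear receptors instead, which switch on the exporters ABCA1 and ABCG1 and the ubiquitin ligase MYLIP, which removes lipoprotein receptors from the cell surface. Most cells run these arms in opposition. The samples here are bulk RNA, so fewer cells expressing a gene and less of its RNA per cell cannot be told apart.

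The libraries held between 33580129 and 59374327 counts on genes, with a median of 40075178. All 29 genes passed the filter on low counts in every comparison. Among the 27 libraries, the lowest count of any of these genes was 17, for ABCA1, and SREBF2 had the highest at 20340. Levels are given as CPM, counts scaled by library size, and a change is called when the adjusted p of edgeR's quasi-likelihood test, taken over all genes tested, is below 0.05. MMP2 itself was lower in both hairpin lines on every day. The control means were 231, 324 and 494 CPM in order of day. In MMP2sh1 they were 40.0, 58.8 and 97.7 CPM, and in MMP2sh2 they were 144, 156 and 279 CPM, so the depletion was deeper in MMP2sh1. The osteoblast-lineage factor RUNX2 (29.9 to 63.7 CPM) and COL1A1 (1017 to 1512 CPM) were present throughout, whereas IBSP was at 0 in 27 libraries and SP7 in 15. COL1A2 (0 to 0.681 CPM) and BGLAP (0 to 0.573 CPM) were at 0 in 6 and 5 libraries. VIM (688 to 833 CPM), SPP1 (6.30 to 26.5 CPM) and ALPL (0.396 to 6.96 CPM) were counted in all 27. Of the markers of other cell types, CD3E and LYZ were at 0 in 26 and 23 libraries, whereas PTPRC (0.0235 to 1.43 CPM) and EPCAM (3.13 to 6.72 CPM) were counted in all 27. Replicate 1 of MMP2sh1 at day −2 stood apart from its group, its counts over genes giving 17.5 and 22.2 times the chi-square of sampling noise (per degree of freedom) against replicates 2 and 3, where that pair gave 7.45. Mitochondrial genes took 4.24% of its counts and 6.11% and 6.55% of those of the other two. The numbers of calls that rest on it are also given without it.

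Expansion of the control cells was accompanied by a fall of nearly the whole synthesis pathway and a rise of the exporters. Summed over the 18 enzymes, the subconfluent cells had 1518 ± 23.1 CPM (SD, n = 3), the confluent cells 1109 ± 24.6 CPM and the overconfluent cells 760 ± 24.5 CPM. From day −2 to day +2, 17 of the 18 enzymes were called lower and 1 higher, with a median log2 fold change of −0.96 against 0.03 over all genes tested. Of all 29 genes, 6 were called higher and 21 lower. Expansion changed much of the transcriptome, and 28.1% of all genes tested were called higher and 28.6% lower. The fall was spread over both intervals. Between days −2 and 0, 4 of the 29 genes were called higher and 19 lower (16.4% and 19.1% of all genes), and between days 0 and +2, 7 were called higher and 19 lower (21.3% and 20.1%). A list of 16 proliferation genes moved over the same days, with a summed level of 5180, 5367 and 4422 CPM in subconfluent, confluent and overconfluent control cells, and its part in the fall of the sterol enzymes was not tested.

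**Figure D1:**
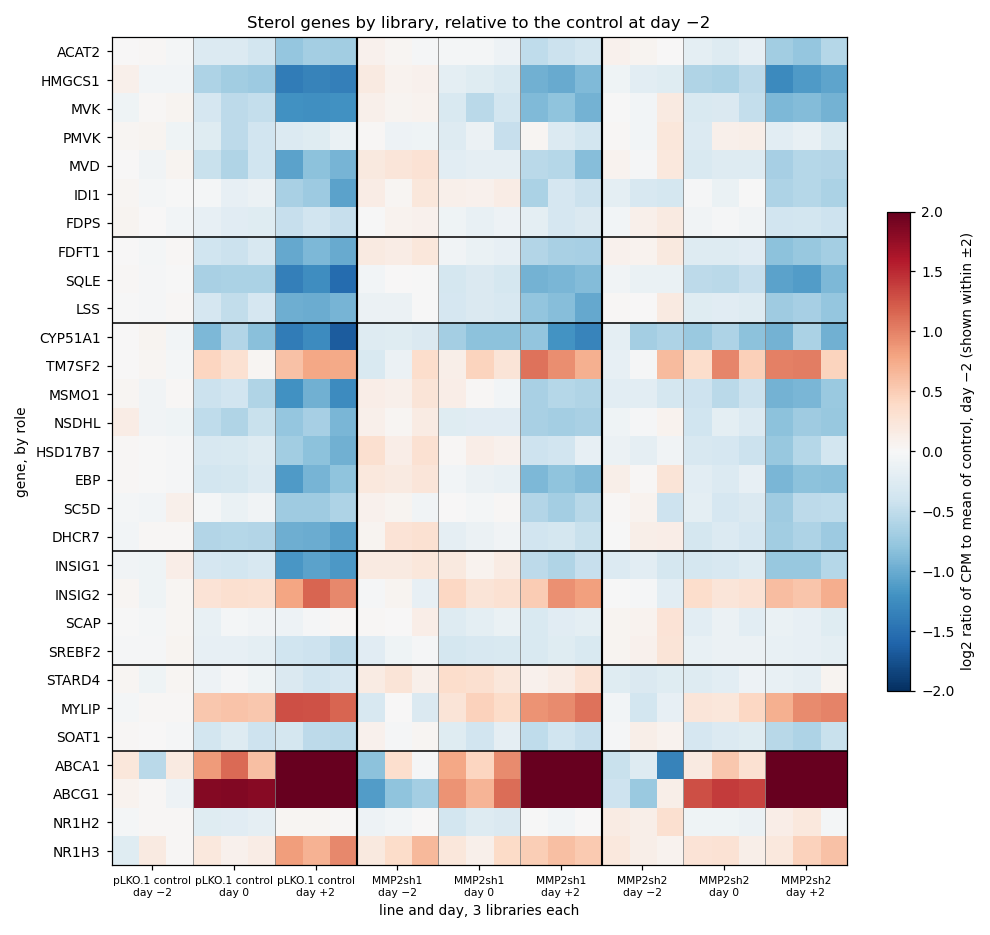
Each row is 1 of the 29 genes, grouped by role, and each column 1 of the 27 libraries, grouped by line and day; colour is the log2 ratio of the library's CPM to the mean of the control at day −2, cut at ±2. In each line most enzyme rows turn blue towards day +2 and PMVK differs little between days −2 and +2, while TM7SF2, INSIG2, MYLIP, ABCA1 and ABCG1 turn red.

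In the mevalonate branch, HMGCS1, the synthase that makes HMG-CoA, fell most. Its level in the 3 control libraries was 179, 162 and 162 CPM at day −2, 109, 103 and 101 CPM at day 0, and 63.8, 66.6 and 65.0 CPM at day +2. Each day lay wholly below the day before it. The log2 fold change from day −2 to day +2 was −1.38 ± 0.05 (standard error, adjusted p = 7.3e-18). Mevalonate kinase (MVK) fell by 1.23 and mevalonate diphosphate decarboxylase (MVD) by 0.95 on the same log2 scale. The isomerase IDI1 fell by 0.82, the thiolase ACAT2 by 0.73 and farnesyl diphosphate synthase (FDPS) by 0.45. In the GENCODE annotation of GRCh37, other genes share 37.7% of the exon bases of HMGCS1, 36.4% of those of EBP, 22.2% of those of ACAT2, 22.1% of those of NR1H2 and 18.6% of those of FDPS, and reads on shared bases are discarded in this kind of counting. Phosphomevalonate kinase (PMVK) changed least over the whole expansion, with −0.23 ± 0.08 (adjusted p = 0.013). That call was lost without control replicate 2 of day −2 or replicate 1 of day +2. The control means of PMVK were 27.4, 21.1 and 23.7 CPM in order of day. Its fall up to day 0 was called and stayed called whichever library was left out.

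Of the enzymes from squalene to lanosterol, all 3 fell. SQLE, the epoxidase that oxidises squalene, was at 222.8, 215 and 217 CPM at day −2, at 139.7, 141 and 140.5 CPM at day 0, and at 84.3, 92.3 and 75.2 CPM at day +2. The days did not overlap, and its log2 fold change over the whole expansion was −1.40 ± 0.06 (adjusted p = 3.5e-17). Squalene synthase (FDFT1) fell by 0.99 and lanosterol synthase (LSS) by 0.98.

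Of the 8 enzymes from lanosterol to cholesterol, 7 fell. CYP51A1, the lanosterol demethylase, had the largest fall. It was at 6.01, 6.22 and 5.75 CPM at day −2, at 3.22, 3.98 and 3.34 CPM at day 0, and at 2.28, 2.52 and 1.90 CPM at day +2. All 3 libraries of each day lay below those of the day before, with a log2 fold change of −1.44 ± 0.18 (adjusted p = 1.5e-07) over the expansion. CYP51A1 was counted from few reads, 78 to 347 in a library, and 74.1% of its exon bases are shared with other genes. The sterol methyl oxidase MSMO1 fell by 1.15, the final reductase DHCR7 by 1.03, the isomerase EBP by 0.96, HSD17B7 by 0.84, NSDHL by 0.80 and the desaturase SC5D by 0.69. HSD17B7 and FDPS have pseudogene copies, so their values are uncertain where reads could not be placed. TM7SF2, which encodes a sterol C14 reductase, went the other way. Its control libraries were at 4.87, 5.01 and 4.72 CPM at day −2 and at 7.32, 8.35 and 8.22 CPM at day +2, a log2 fold change of 0.70 ± 0.14 (adjusted p = 0.00014).

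The genes around SREBP2 did not move as a block during expansion. INSIG1, which retains SCAP in the endoplasmic reticulum and is itself a classical SREBP target, fell together with the enzymes. Its levels in the control were 48.7, 48.2 and 55.8 CPM at day −2, 40.5, 39.5 and 40.9 CPM at day 0, and 22.8, 24.3 and 22.9 CPM at day +2. The 3 days did not overlap, and the log2 fold change was −1.14 ± 0.07 (adjusted p = 3.9e-13). INSIG2, which does the same job, rose by 0.97 ± 0.09 on the log2 scale (adjusted p = 8.8e-10), from between 14.4 and 15.8 CPM to between 26.5 and 34.1 CPM. SREBF2, the gene of SREBP2, fell by 0.46, and SCAP was not called (−0.05 ± 0.05, adjusted p = 0.41).

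MYLIP rose through the expansion of the control cells. It was at 9.78, 10.2 and 10.3 CPM at day −2, at 14.64, 14.96 and 14.62 CPM at day 0, and at 24.8, 24.3 and 22.6 CPM at day +2, again with no overlap between days. The log2 fold change was 1.23 ± 0.09 (adjusted p = 7.5e-12). SOAT1, which esterifies cholesterol for storage, fell by 0.48, and STARD4, a carrier that moves sterol between membranes, fell by 0.35.

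The exporters rose more than any other gene of the set. ABCA1, which loads cholesterol onto apolipoprotein A-I, was at 1.45, 0.851 and 1.41 CPM at day −2, at 2.25, 2.71 and 1.89 CPM at day 0, and at 10.2, 8.27 and 10.1 CPM at day +2. Most of this rise came after confluence, with a log2 fold change of 0.88 ± 0.29 (adjusted p = 0.019) up to day 0 and 2.06 ± 0.17 (adjusted p = 2e-11) from day 0 to day +2. The earlier step was not called without control replicate 2 of either day. ABCG1, which exports cholesterol to high density lipoprotein, was at 9.23, 8.94 and 8.25 CPM at day −2, at 31.5, 31.7 and 31.1 CPM at day 0, and at 57.9, 60.6 and 62.4 CPM at day +2. Its larger step came before confluence, at 1.83 ± 0.09 (adjusted p = 1.7e-15), and its later step was 0.95 ± 0.06 (adjusted p = 1.7e-13). Of the receptors themselves, NR1H3 (LXR alpha) rose by 0.83 ± 0.11 (adjusted p = 4.7e-07), and NR1H2 (LXR beta) was not called over the whole expansion, with 0.02 ± 0.05 (adjusted p = 0.74). NR1H2 was called lower up to day 0 (−0.22) and higher from day 0 to day +2 (0.26), and both calls held whichever library was left out.

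**Figure D2:**
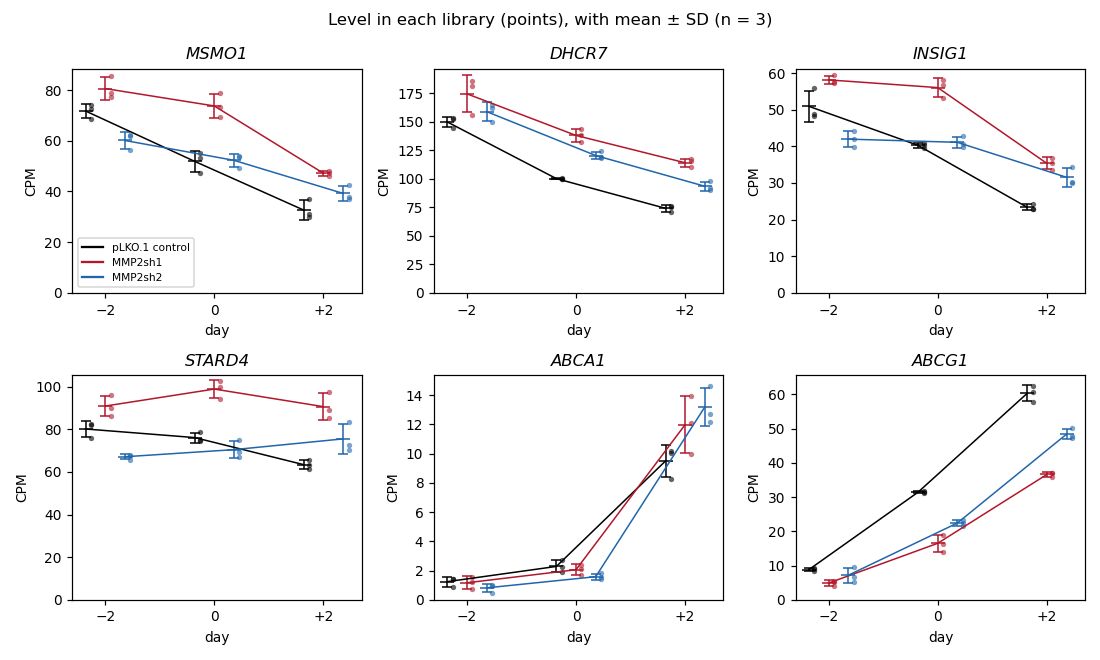
CPM (vertical axis, from 0) by day for 6 genes in pLKO.1 control (black), MMP2sh1 (red) and MMP2sh2 (blue); points are libraries and bars are mean ± SD of 3 libraries. MSMO1, DHCR7 and INSIG1 fell and ABCA1 and ABCG1 rose in all 3 lines, with ABCG1 at day +2 reaching 60.3 CPM in the control, 36.6 in MMP2sh1 and 48.4 in MMP2sh2.

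Promoter sequence was examined because these genes moved together over the expansion. RefSeq start sites on GRCh38.p14 (250 bases before to 50 after the start) were listed for 25 of the 29 genes, with 34 windows since some genes have several starts. No window was listed for ACAT2, FDFT1, SQLE and ABCG1. An SRE-like sequence, TCACNCCAC on either strand, was found in 1 of these 34 windows and in 1.13% of all 35116 promoter windows of this length. That window belongs to SREBF2 itself, at chr22:41832962-41832990 on the plus strand, and is printed 5′ to 3′ with the match in capitals.
SREBF2: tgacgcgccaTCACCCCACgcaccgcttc
The box CCAAT, which reads ATTGG on the other strand and was searched on both, is bound by the factor NF-Y that acts beside SREBP at many sterol genes. It was found in 15 of 20 enzyme windows (75%), in 6 of 14 windows of the other genes (42.9%) and in 34.6% of all windows. A match in capitals is shown on the strand of the gene for 6 genes that fell over the expansion and for TM7SF2 and MYLIP, which rose.
HMGCS1, chr5:43313496-43313524, minus strand: ctaccggccgcgATTGGctgtgggagcca
MVD, chr16:88663160-88663188, minus strand: ggctcgcacgggCCAATcctgtggtagcg
MSMO1, chr4:165327623-165327651, plus strand: agctctcgcaggCCAATaacgacaggacg
DHCR7, chr11:71448425-71448453, minus strand: ggtccgcctccgATTGGcaggcaatcgct
INSIG1, chr7:155297696-155297724, plus strand: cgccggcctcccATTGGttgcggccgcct
STARD4, chr5:111512649-111512677, minus strand: ctcccgcgccagCCAATccgaacaagcgc
TM7SF2, chr11:65111786-65111814, plus strand: ccccgagcgccgATTGGctggtgtgctgg
MYLIP, chr6:16129006-16129034, plus strand: agggaggccgtgATTGGcggggacccgag
The box was thus found both at genes that fell and at genes that rose, NR1H3 among the latter in 1 of its 4 windows. It was not found in the windows of CYP51A1, PMVK, SCAP, INSIG2, ABCA1 and NR1H2. The GC box, GGGCGG on either strand, was found in 90% of enzyme windows, 85.7% of windows of the other genes and 45% of all windows. A match describes these letters only. The SRE-like search took the exact letters TCACNCCAC in these windows, so the lack of a match does not show the lack of an SREBP site.

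The question of the hairpin comparisons was which genes depend on MMP-2 at each stage. In MMP2sh1, sterol synthesis genes were higher than in the control, most clearly from confluence on, and ABCG1 was lower on all 3 days. At day −2, 5 of the 29 genes were called higher and 1 lower, when 5.42% and 6.14% of all genes tested were. At day 0 the counts were 12 higher and 2 lower, against 8.26% and 8.58% of all genes, and at day +2 they were 13 higher and 4 lower, against 7.68% and 7.11%. Of the 18 enzymes, 4, 10 and 10 were called higher on the successive days, and 0 were called lower on each. Of 16 proliferation genes, 1, 3 and 1 were called higher on these days (5.42%, 8.26% and 7.68% of all genes tested). On each day 2 were called lower (6.14%, 8.58% and 7.11%). Their summed level in MMP2sh1 was 5153, 5372 and 4438 CPM, and their part in the higher enzyme levels was not tested. The 18 enzymes summed to 1619 ± 36.4 CPM (SD, n = 3) in subconfluent, 1332 ± 13.6 CPM in confluent and 946 ± 17.8 CPM in overconfluent MMP2sh1 cells.

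Among the enzymes, MVD, FDFT1 and DHCR7 were called higher in MMP2sh1 on every day. MVD was at 77.6, 80.0 and 83.3 CPM in MMP2sh1 at day −2, against 68.7, 64.6 and 70.7 CPM in the control. At day +2 it was at 46.7, 45.7 and 37.7 CPM, and the lowest of these lay below the highest control library (32.2, 38.6 and 35.5 CPM). Its log2 fold changes on the 3 days were 0.24, 0.28 and 0.29.

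FDFT1 was at 147, 140.3 and 139.8 CPM in MMP2sh1 at day +2, where the control libraries were at 108, 118 and 109.7 CPM. The groups did not overlap, and its log2 fold change was 0.35 ± 0.06 (adjusted p = 4.9e-05), after 0.18 at day −2 and 0.26 at day 0. DHCR7 showed the largest change of any enzyme at day +2. It was at 156, 182 and 186 CPM in MMP2sh1 and 145, 152 and 153 CPM in the control at day −2, and at 132, 139 and 143 CPM against 99.7, 101 and 100.2 CPM at day 0. At day +2 the values were 115.2, 117.0 and 110.002 CPM against 76.4, 75.1 and 70.9 CPM. The lines did not overlap on any day, and the log2 fold changes were 0.22 ± 0.06 (adjusted p = 0.021), 0.46 ± 0.05 (adjusted p = 3.4e-09) and 0.62 ± 0.06 (adjusted p = 4.6e-09).

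Several enzymes were called higher in MMP2sh1 at days 0 and +2 but not at day −2. MSMO1 was higher by 0.51 and 0.53 on the log2 scale, HMGCS1 by 0.43 and 0.42, SQLE by 0.31 and 0.47, HSD17B7 by 0.37 and 0.50, and ACAT2 by 0.24 and 0.28. EBP was called higher at days −2 (0.21) and 0 (0.22), NSDHL at day 0 (0.28), and MVK (0.34) and IDI1 (0.34) at day +2. PMVK, FDPS, LSS, CYP51A1, TM7SF2 and SC5D were not called in MMP2sh1 on any day.

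INSIG1 followed the enzymes. Its libraries were at 58.1, 53.2 and 56.9 CPM in MMP2sh1 and at 40.5, 39.5 and 40.9 CPM in the control at day 0, and at 35.4, 33.7 and 37.0 CPM against 22.8, 24.3 and 22.9 CPM at day +2. There was no overlap on either day, with log2 fold changes of 0.48 ± 0.06 (adjusted p = 3.6e-07) and 0.60 ± 0.08 (adjusted p = 1.3e-06). The value at day −2 was 0.19 ± 0.07 (adjusted p = 0.078). SREBF2 was called lower at day 0 (−0.15) and higher at day +2 (0.16), and SCAP was called lower at day +2 (−0.20).

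STARD4 was also higher. In MMP2sh1 it was at 103, 99.9 and 94.2 CPM at day 0 and at 85.1, 89.0 and 97.7 CPM at day +2, where the control was at 74.4, 78.8 and 75.2 CPM and at 65.6, 61.3 and 63.3 CPM. The lines were apart on both days, with log2 fold changes of 0.38 ± 0.05 (adjusted p = 9.1e-07) and 0.52 ± 0.06 (adjusted p = 6e-07). MYLIP was called lower at day +2 (−0.26 ± 0.09, adjusted p = 0.04). SOAT1 was not called in either hairpin line on any day.

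On the efflux side, ABCG1 was lower in MMP2sh1 on each day. It was at 4.05, 5.04 and 5.52 CPM at day −2, at 16.4, 14.1 and 19.0 CPM at day 0, and at 35.9, 37.0 and 37.0 CPM at day +2. All of these lay below the control libraries of the same day, which were given above for the expansion. The log2 fold changes were −0.86 ± 0.15 (adjusted p = 0.00028), −0.94 ± 0.09 (adjusted p = 8.4e-10) and −0.72 ± 0.07 (adjusted p = 2.9e-09). ABCA1 was not called on any day, and at day +2 its log2 fold change was 0.34 ± 0.13 (adjusted p = 0.075). NR1H3 was called higher at day −2 (0.42) and lower at day +2 (−0.29), and NR1H2 was not called.

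The calls in MMP2sh1 at day 0 held in each of the 6 fits that left out 1 library. At day −2, ABCG1 alone held in all 6 such fits, and the number of calls dropped from 6 to 1 without control replicate 1, to 2 without control replicate 2 and to 3 without MMP2sh1 replicate 3. Without MMP2sh1 replicate 1, which stood apart, 6 genes were called and ABCG1 was at −0.75. At day +2, 9 of the 17 calls held throughout (ABCG1, DHCR7, FDFT1, HMGCS1, HSD17B7, INSIG1, MSMO1, SQLE and STARD4), and 11 were left without MMP2sh1 replicate 2. The call of SREBF2 was also lost with no filter on low counts, that of IDI1 with DESeq2, and those of MYLIP and NR1H3 in a fit of all 27 libraries.

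**Figure D3:**
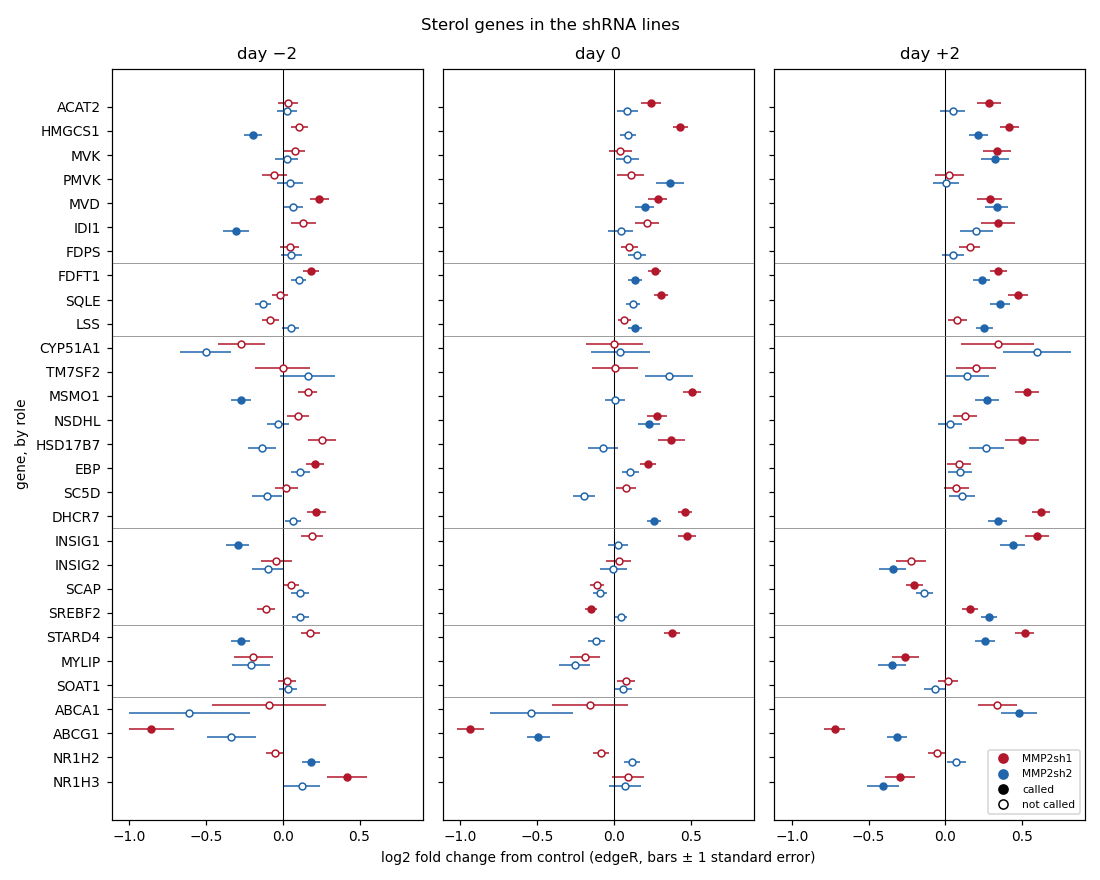
Log2 fold change from the control (horizontal axis, bars ± 1 standard error of edgeR's fit) for the 29 genes on each day, in MMP2sh1 (red) and MMP2sh2 (blue), with filled points for calls. At day −2 filled points lie on both sides of 0, and at day +2 DHCR7 (0.62 and 0.34), INSIG1 (0.60 and 0.44) and SQLE (0.47 and 0.36) lie to the right in both lines and ABCG1 (−0.72 and −0.31) to the left.

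In MMP2sh2, where less of MMP2 was lost, the synthesis genes were in part below the control at day −2 and above it at day +2. At day −2, 1 of the 29 genes was called higher and 5 lower, against 4.71% and 6.33% of all genes tested. At day 0, 6 were called higher and 1 lower, against 7.07% and 5.81%. At day +2, 12 were called higher and 4 lower, while 2.89% and 3.43% of all genes were. Of the 18 enzymes, 0 were called higher and 3 lower at day −2, 6 higher and 0 lower at day 0, and 8 higher and 0 lower at day +2. The median log2 fold change of the enzymes was 0.03, 0.12 and 0.23 on the 3 days, and the median of all genes tested was 0.00 on each. Without MMP2sh2 replicate 3 the median of the enzymes at day −2 was −0.03.

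The 5 genes called lower in MMP2sh2 at day −2 were MSMO1, HMGCS1, IDI1, INSIG1 and STARD4. INSIG1 was at 41.9, 44.1 and 39.9 CPM in MMP2sh2 against 48.7, 48.2 and 55.8 CPM in the control, so that the groups did not overlap (−0.29 ± 0.07, adjusted p = 0.012). STARD4 was at 68.1, 65.7 and 67.6 CPM against 82.1, 75.9 and 82.5 CPM, again without overlap (−0.27 ± 0.06, adjusted p = 0.0047). The log2 fold changes of MSMO1, HMGCS1 and IDI1 were −0.27, −0.19 and −0.30. NR1H2 was the gene called higher (0.18 ± 0.06, adjusted p = 0.047), a call that was lost with no filter on low counts.

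At day +2 the same 4 genes MSMO1, HMGCS1, INSIG1 and STARD4 were called higher in MMP2sh2. INSIG1 was at 30.0, 30.2 and 34.5 CPM, above all 3 control libraries (22.8, 24.3 and 22.9 CPM), with a log2 fold change of 0.44 ± 0.08 (adjusted p = 0.00022). STARD4 was at 72.5, 70.5 and 83.5 CPM against 65.6, 61.3 and 63.3 CPM (0.26 ± 0.07, adjusted p = 0.0091). SQLE was at 104, 101 and 117 CPM against 84.3, 92.3 and 75.2 CPM, also without overlap (0.36 ± 0.07, adjusted p = 0.00019). DHCR7 was higher by 0.34, as was MVD, and MVK by 0.32, MSMO1 by 0.27, LSS by 0.25, FDFT1 by 0.24 and HMGCS1 by 0.22 on the log2 scale. SREBF2 was called higher (0.28 ± 0.05, adjusted p = 0.00013), and INSIG2 (−0.34), MYLIP (−0.35) and NR1H3 (−0.40) were called lower.

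At day 0, PMVK (0.37), DHCR7 (0.26), NSDHL (0.23), MVD (0.20), FDFT1 (0.14) and LSS (0.14) were called higher in MMP2sh2, of which MVD and LSS were not called in a fit of all 27 libraries. ABCG1 was the gene called lower, at 21.6, 23.3 and 22.4 CPM against 31.5, 31.7 and 31.1 CPM (−0.49 ± 0.08, adjusted p = 1.3e-05). It was lower again at day +2, at 47.29, 50.02 and 47.77 CPM against 57.9, 60.6 and 62.4 CPM (−0.31 ± 0.07, adjusted p = 0.0011), a call that was lost in a fit of all 27 libraries. ABCA1 was called higher at day +2, at 12.2, 12.7 and 14.6 CPM against 10.2, 8.27 and 10.1 CPM (0.48 ± 0.12, adjusted p = 0.0058). That call was lost without control replicate 2 and in the fit of all libraries.

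Of the 6 calls at day −2, STARD4 held in each fit that left out 1 library, and the number of calls was 2 without control replicate 1 or 3 and 3 without control replicate 2. Of the 7 calls at day 0, ABCG1 and DHCR7 held throughout, and the number was 2 without control replicate 2 or MMP2sh2 replicate 2, 3 without MMP2sh2 replicate 3, and 4 without replicate 1 of either line. Of the 16 at day +2, ABCG1, DHCR7, INSIG1, LSS, MVD, SQLE and SREBF2 held throughout, and 10 were left without control replicate 2. FDPS, CYP51A1, TM7SF2, SC5D and SOAT1 were called in none of the 6 hairpin comparisons.

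Whether the effect of a hairpin differed between day −2 and day +2 was tested directly, as an interaction of line and day. In MMP2sh1, 7 of the 29 genes had a more positive effect at day +2 and 2 a more negative one, against 4.52% and 2.88% of all genes tested. In MMP2sh2, 9 had a more positive effect and 0 a more negative one, against 2.71% and 2.28%. In both lines HMGCS1, SQLE, MSMO1, DHCR7, INSIG1 and STARD4 were among the calls. The differences in log2 fold change of INSIG1 were 0.41 ± 0.10 in MMP2sh1 (adjusted p = 0.011) and 0.73 ± 0.11 in MMP2sh2 (adjusted p = 3.8e-05), and those of SQLE were 0.49 ± 0.08 (adjusted p = 0.00024) and 0.48 ± 0.09 (adjusted p = 0.00046). MSMO1 gave 0.37 and 0.54, STARD4 0.34 and 0.53, HMGCS1 0.31 and 0.40, and DHCR7 0.41 and 0.27. NR1H3 had the opposite sign in MMP2sh1 (−0.71 ± 0.17, adjusted p = 0.0073), and in MMP2sh2 it was not called (−0.53 ± 0.16, adjusted p = 0.0502). ABCG1 gave 0.14 ± 0.13 and 0.03 ± 0.15 and was not called in either line. In MMP2sh1, the calls of DHCR7, NR1H3 and SQLE held whichever library was left out, and the number of calls was 4 without control replicate 1 of day −2 and 5 without control replicate 3 of that day. Without MMP2sh1 replicate 1 of day −2 it was 8, and SREBF2 was no longer called. In MMP2sh2, those of CYP51A1, HMGCS1, INSIG1, MSMO1, SQLE and STARD4 held.

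Expansion was also tested within each hairpin line, in fits that use no control library. Setting these results beside the control still rests on its libraries. In MMP2sh1, 5 of the 29 genes were called higher and 20 lower from day −2 to day +2, against 27.3% and 27.7% of all genes tested, and 25 in all were also called without MMP2sh1 replicate 1 of day −2. In MMP2sh2, the counts were 7 and 20, against 27.7% and 27.1%. In both lines 16 of the 18 enzymes were called lower, and TM7SF2 was the enzyme called higher (0.89 in MMP2sh1 and 0.68 in MMP2sh2). The median log2 fold change of the enzymes was −0.79 in MMP2sh1 and −0.70 in MMP2sh2, and it was −0.96 in the control. The fall of SQLE was −0.91 in both lines, and that of INSIG1 was −0.74 in MMP2sh1 and −0.41 in MMP2sh2. STARD4, called lower in the control, was not called in MMP2sh1 (−0.02 ± 0.07, adjusted p = 0.8) and was called higher in MMP2sh2 (0.18 ± 0.07, adjusted p = 0.034), though that call was lost in 5 of the 6 fits without 1 library. CYP51A1 was at 5.22, 3.74 and 3.89 CPM at day −2 and at 3.12, 3.88 and 3.08 CPM at day +2 in MMP2sh2, where the days overlapped (−0.34 ± 0.20, adjusted p = 0.15).

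The exporters rose in the hairpin lines as well. ABCA1 went from 0.702, 1.57 and 1.22 CPM to 9.98, 12.1 and 13.9 CPM in MMP2sh1, and from 0.910, 1.04 and 0.490 CPM to 12.2, 12.7 and 14.6 CPM in MMP2sh2. The log2 fold changes were 3.32 ± 0.22 (adjusted p = 5.4e-12) and 3.98 ± 0.20 (adjusted p = 2.1e-17), of which the latter exceeded that of the control (interaction 1.07 ± 0.29, adjusted p = 0.024). This interaction was not called without replicate 1 or 3 of the control or replicate 3 of MMP2sh2 at day −2, or without replicate 2 of the control or replicate 3 of MMP2sh2 at day +2. ABCG1 rose by 2.89 and 2.79, INSIG2 by 0.78 and 0.72, and MYLIP by 1.15 and 1.09 on the log2 scale. NR1H3 was not called in MMP2sh1 (0.11 ± 0.12, adjusted p = 0.47).

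**Figure D4:**
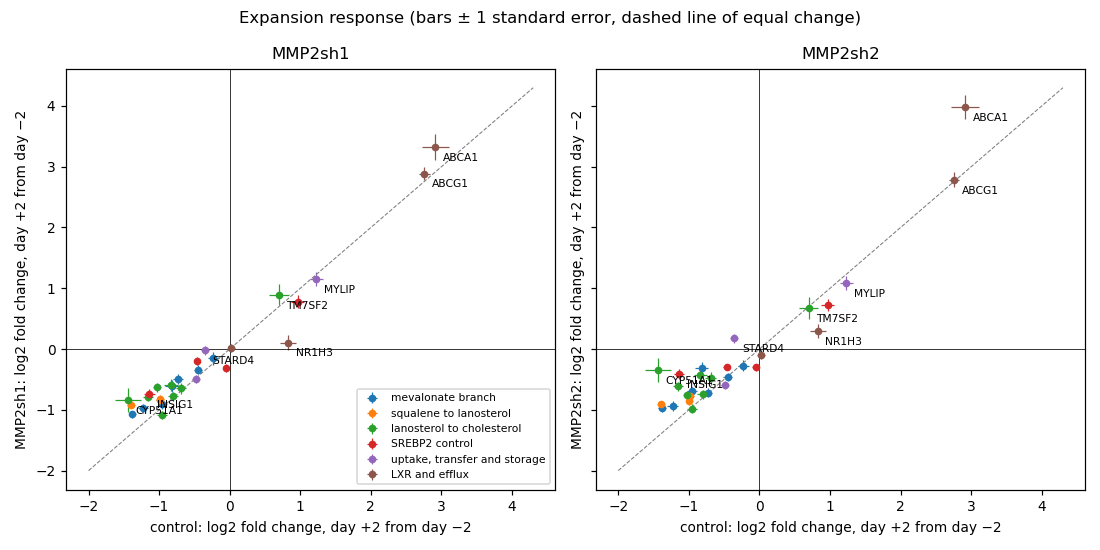
Log2 fold change from day −2 to day +2 in the control (horizontal axis) against MMP2sh1 (left) or MMP2sh2 (right), 1 point per gene coloured by role, bars ± 1 standard error, with a dashed line of equal change. Most enzymes lie above the line at the lower left, INSIG1 at −1.14 in the control and −0.41 in MMP2sh2, and NR1H3 lies below it at 0.83 against 0.11 in MMP2sh1.

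The hairpin lines also differed from each other. At day −2, 6 of the 29 genes were called higher in MMP2sh1 than in MMP2sh2 and 2 lower, against 5.01% and 5.69% of all genes tested, and 7 in all were called without MMP2sh1 replicate 1. At day 0 the counts were 9 and 4, against 8.9% and 9.62%, and at day +2 they were 3 and 1, against 4.59% and 3.27%. MSMO1 and STARD4 were higher in MMP2sh1 on each day. STARD4 differed by 0.45 ± 0.07 (adjusted p = 3.9e-05), 0.50 ± 0.05 (adjusted p = 6e-09) and 0.26 ± 0.07 (adjusted p = 0.021), and its libraries in the 2 lines did not overlap on any day. MSMO1 differed by 0.43, 0.50 and 0.26, and INSIG1 by 0.48 and 0.45 at days −2 and 0. ABCG1 was lower in MMP2sh1 than in MMP2sh2 at day 0 (−0.44) and day +2 (−0.41). At day +2 the calls of DHCR7 and ABCG1 held in every fit without 1 library, whereas those of MSMO1 and STARD4 were lost without replicate 2 or 3 of MMP2sh1 or replicate 1 or 2 of MMP2sh2.

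A list of 26 further sterol genes was counted beside these, of which 24 were tested. From day −2 to day +2 in the control, 8 of the 24 were called higher and 10 lower, against 28.1% and 28.6% of all genes tested. Those past 1 on the log2 scale were NPC2, which moves cholesterol out of lysosomes (1.37 ± 0.05), the cholesteryl ester hydrolase NCEH1 (−1.09 ± 0.10) and the lipoprotein receptor SCARB1 (−1.74 ± 0.06). In MMP2sh1, 2, 7 and 4 of the 24 were called higher on the 3 days (5.42%, 8.26% and 7.68% of all genes) and 2, 3 and 2 lower (6.14%, 8.58% and 7.11%). In MMP2sh2, 2, 5 and 4 were called higher (4.71%, 7.07% and 2.89% of all genes) and 1, 1 and 0 lower (6.33%, 5.81% and 3.43%). VLDLR and LRP8, lipoprotein receptors that MYLIP removes from the cell surface, were chosen after their values were seen. At day +2 they were higher in MMP2sh1 by 0.77 ± 0.10 (adjusted p = 1.4e-06) and 0.52 ± 0.07 (adjusted p = 3.7e-06). In MMP2sh2 the differences were 0.40 ± 0.10 (adjusted p = 0.011) and 0.30 ± 0.08 (adjusted p = 0.0078). Mean VLDLR in control, MMP2sh1 and MMP2sh2 was 22.4, 23.9 and 20.4 CPM at day −2 and 18.7, 25.9 and 17.8 CPM at day 0. Mean LRP8 was 51.3, 50.5 and 53.3 CPM and then 43.2, 56.1 and 52.8 CPM. The receptor SCARB1 was at 42.5, 46.7 and 43.4 CPM at day +2. A link of these RNA levels to MYLIP was not tested.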

How the data were processed

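Total RNA of 27 libraries from U2OS cells was poly(A) selected. The authors used Trim Galore 0.6.0 for trimming and STAR 2.7.3a for alignment to hg19, removed low quality alignments and deposited raw counts per gene from HTSeq 2.0.0 (union mode on exons, minimum alignment quality 10, strand not used). The gene annotation is not given in the sources used here. Reads on exon bases shared by several genes are discarded in that mode. Lines that name no gene held 16.8 to 19.1% of counted reads and were left out of library sizes.

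Each comparison was fitted on its own 6 libraries (12 for an interaction) with edgeR 4.0.16 in R 4.3.3: TMM scaling, filterByExpr (minimum count 10, minimum total 15), quasi-likelihood test, Benjamini-Hochberg adjustment over all genes tested and calls at an adjusted p below 0.05. Standard errors were derived from the log2 fold change and its F statistic. CPM values use TMM factors over all 27 libraries. The code was tested on simulated data. DESeq2 1.42.0, other scaling and filters, a fit of all libraries, a replicate block and leaving out each library were alternatives. Replicates are described as independent biological replicates in the study's methods, and their counts varied beyond sampling noise (chi-square per degree of freedom 4.58 to 22.2 over 27 pairs, the highest for MMP2sh1 replicate 1 at day −2). No test over a gene list was run.

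The 29 genes, the other lists and their roles were chosen with earlier results of these data known. All 29 genes are named. Values per library are given by rule for the gene in each role with the largest change among those called in most of the 6 hairpin comparisons, and for the gene in each role with the largest change over the expansion of the control; those for TM7SF2, and ABCA1 in the hairpin lines, were added after the values were seen. Other sterol genes are named if called in all 6 hairpin comparisons (0 were) or past 1 on the log2 scale over the control expansion. LBR, VLDLR and LRP8 met neither condition and were added after the values were seen. Promoter windows are RefSeq sequence on GRCh38.p14, and exon overlap was computed from GENCODE on GRCh37.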

Additional observations from a re-analysis of the deposited data

Results flagged for a closer look

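In MMP2sh1 the difference from the control changed between day −2 and day +2 for 9 of the 29 genes, by edgeR's test of the interaction of line and day. On the log2 scale, and positive where the effect was higher at day +2, the change was 0.31 for HMGCS1, 0.49 for SQLE, 0.37 for MSMO1, 0.41 for DHCR7, 0.41 for INSIG1, 0.27 for SREBF2 and 0.34 for STARD4, and it was −0.25 for SCAP and −0.71 for NR1H3. In MMP2sh2 it changed for 9 genes, all in the positive direction: 0.40 for HMGCS1, 0.50 for IDI1, 0.48 for SQLE, 1.10 for CYP51A1, 0.54 for MSMO1, 0.27 for DHCR7, 0.73 for INSIG1, 0.53 for STARD4 and 1.07 for ABCA1. Both sets use the same 6 control libraries, so a control library that deviates moves both. CYP51A1 rests on 78 to 347 counts in a library and ABCA1 on 17 to 613.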

How the results depend on the processing

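Of 1530 fits of the 237 calls that left out 1 library, 1339 stayed called, 191 were no longer called and 0 changed sign; of 1422 fits under the other alternatives, 1397 stayed called, 25 did not and 0 changed sign. Leaving out 1 library at a time gave 1 to 6 calls in MMP2sh1 at day −2 (6 with all libraries), 14 to 14 at day 0 (14) and 11 to 15 at day +2 (17); 2 to 6 (6), 2 to 7 (7) and 10 to 13 (16) in MMP2sh2; 2 to 6 (4) between the hairpin lines at day +2; and 4 to 8 (9) for the interaction in MMP2sh1. Between the hairpin lines at day +2, 7 genes were called with a replicate block and 7 in a fit of all 27 libraries. Same-numbered libraries did not deviate together (42 correlations from −0.0249 to 0.0366 over 22107 genes), so the numbers were not taken as pairs. The replicate block gave 8, 14 and 13 calls in MMP2sh1 and 7, 5 and 16 in MMP2sh2 on the 3 days. With it, SREBF2 (adjusted p = 0.085), IDI1 (0.065), MYLIP (0.089) and NR1H3 (0.086) were not called in MMP2sh1 at day +2, nor FDFT1 (0.062) and LSS (0.069) in MMP2sh2 at day 0. The causes were not tested. Depth limits CYP51A1 and ABCA1, the genes with the fewest counts.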
